A study of Glycine max with 24 samples.

Results

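The early change of 51389 soybean transcripts was compared between the cotyledon and the trifoliate leaf. For each transcript the C-I to C-II change of the cotyledon was set against the L-I to L-II change of the leaf, and the leaf change was subtracted from the cotyledon change. Transcripts above the lowest value of the table, which stands for 0 reads, in at least 3 of the 6 libraries of each tissue were taken. These were 51389 of the 73320 transcripts in the tables (70.1%), from 37174 of 54175 genes. A further 4489 transcripts met the limit in the cotyledon alone, 3063 in the leaf alone and 14379 in neither. Just inside the limit, 4522 transcripts had exactly 3 such libraries in the sparser tissue, with a median of the mean normalized count of 2.42, and just outside it 4189 had 2, with a median of 1.26.

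All plants were of the cultivar Williams-82 and grew in chambers with 12 h of light and 12 h of dark, without further treatment. Stage C-I was a pair of cotyledons 4 days after planting, just emerged, green and still closed, and C-II a pair of open cotyledons 15 days after planting. Stage L-I was a trifoliate at the V3 stage that had not reached full size, and L-II was labelled as 2 weeks after V3, although the methods of the study describe a longer interval. Each stage had 3 replicate libraries, from separate individual plants as the study describes them. Seedlings for C-I grew on MS medium in Magenta boxes and those for C-II in a soil mix, so age and growth conditions cannot be told apart in the cotyledon change. Cotyledon and leaf libraries were sequenced on different instruments and scaled separately. Therefore changes, but no levels, were compared between the tissues.

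The cotyledons of soybean are seed leaves that first store protein and oil. After germination they export these reserves, open, turn green and photosynthesize for a short time before they senesce. A trifoliate leaf starts as a growing sink that loosens and extends its cell walls and builds its cuticle, and matures into an exporter of sugar. The stages compared here cover the span from young to mature in each organ. Among the genes described below, chloroplast genes serve light capture and carbon fixation, expansins and polygalacturonases modify the wall, WRKY and NAC factors regulate defense and senescence, and transporters move nitrogen, sulfur, phosphorus and potassium.

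Library depth ranged from 2163050 to 16450093 reads in the cotyledon (7.61 times) and from 1852184 to 5524963 in the leaf (2.98 times). Replicate 1 was the shallowest of its stage at C-I, C-II and L-I. One library stood apart, replicate 3 of L-II. The 242 photosynthesis transcripts summed to 540556, 424013 and 113768 normalized counts in replicates 1 to 3 of L-II, compared with 498226, 385370 and 516094 at L-I. Its level was thus under those of all other leaf libraries compared. Values without it stand beside several of the results below. Green tissue markers (light-harvesting proteins and rubisco) had reads at each of the 4 stages for 54 of 54 transcripts. These markers do not tell cotyledon from leaf.

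The change was called different between the tissues for 3112 transcripts with the cotyledon change above the leaf change and for 2114 with the cotyledon change below it. These were 6.06% and 4.11% of the transcripts tested. A call required an adjusted p-value under 0.05 and a log2 difference over 1.5, on the scale of the deposited variance-stabilized values. In genes, 2894 had a transcript called above and 1881 a transcript called below. No gene was in both groups, although 8971 of the genes had at least 2 transcripts tested and 343 had at least 2 transcripts called. In 93.2% of the transcripts called above and 92.2% of those called below, each single-library change in one tissue lay beyond each single-library change in the other. These shares come from the same libraries as the calls, so they are not independent support. The share over all transcripts tested was not counted. The median difference over all transcripts was -0.0053. Scaled to the upper quartile of each library instead, this median was -0.19 and the calls became 2584 above and 2856 below, so the larger number of transcripts above depended on the scaling. Without replicate 3 of L-II the calls were 3262 above and 2622 below. Among transcripts with a mean normalized count of at least 10 in each tissue 13.7% were called, against 6.05% of the others. At 1 of the 4 stages or more, 677 of the transcripts called above and 397 of those called below had at most 3 reads in all 3 libraries, so the detection limit sets part of their fitted difference.

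Most called differences belonged to transcripts with a call in a single organ. Of the 3112 transcripts called above, 1602 (51.5%) rose in the cotyledon with no call in the leaf, and 615 (19.8%) fell in the leaf with no call in the cotyledon. A further 147 (4.72%) rose in the cotyledon and fell in the leaf, 152 rose in both tissues and more in the cotyledon, 74 fell in both and less in the cotyledon, and 522 had no call in either tissue alone. Of the 2114 called below, 1146 (54.2%) fell in the cotyledon only and 279 (13.2%) rose in the leaf only. Opposite changes, with a fall in the cotyledon and a rise in the leaf, made up 71 (3.36%). A further 132 fell in both tissues and more in the cotyledon, 15 rose in both and less in the cotyledon, and 471 had no call in either tissue. A call in one tissue alone did not by itself mean a difference between the tissues. Of 10036 transcripts called in 1 tissue alone, the difference was called for 3642 (36.3%).

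**Figure D1:**
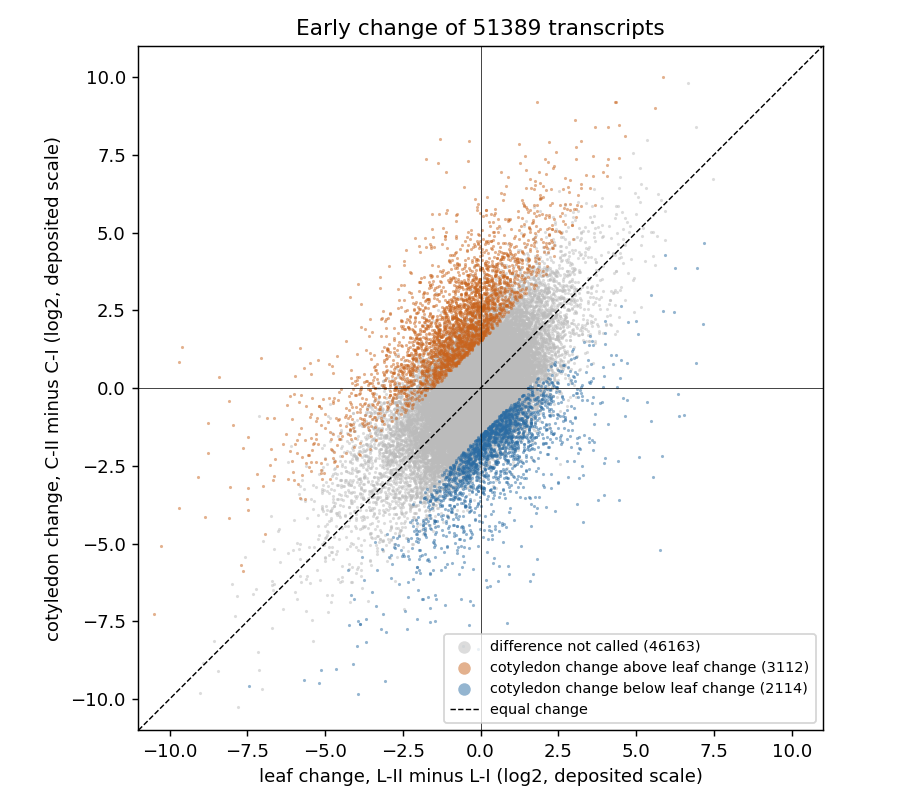
Change from L-I to L-II (horizontal axis) against change from C-I to C-II (vertical axis) for 51389 transcripts, both in log2 on the deposited scale, each point being the difference of 2 means of 3 libraries. The 3112 transcripts called above lie over the line of equal change and the 2114 called below lie under it, with wide scatter on both sides of the line.

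Within each tissue, 4799 transcripts rose from C-I to C-II (9.34%) and 5603 fell (10.9%), while 2167 rose from L-I to L-II (4.22%) and 3917 fell (7.62%). Where both tissues had a call, the direction was mostly shared. Of 3225 such transcripts, 3007 (93.2%) went the same way, 1145 as a rise (2.23% of all tested) and 1862 as a fall (3.62%), and 218 went opposite ways. The difference between the tissues was called for 373 of the 3007. Across the 51389 transcripts the cotyledon change and the leaf change had a Pearson's r of 0.49 and a Spearman's rho of 0.40. The transcripts share libraries within each tissue and are not independent. Without replicate 3 of L-II, 1863 transcripts rose and 3531 fell in the leaf.

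Opposite changes were found for 147 transcripts that rose in the cotyledon and fell in the leaf (0.286% of those tested), and the 4 with the largest differences among those that met the rule for naming encoded a dirigent-like protein, a cytochrome P450, an RNA-binding protein and a small chaperone. In what follows, the values per library are normalized counts of replicates 1 to 3, and changes and differences are log2 values on the deposited scale. Dirigent proteins steer the coupling of phenolic radicals, as in lignan synthesis. The dirigent-like transcript Glyma19g33330.1 had 11.9, 51.9 and 19.3 at C-I and 313, 225 and 117 at C-II. The leaf counts were 309.7, 116 and 472 at L-I and 5.61, 11.9 and 19.9 at L-II. All C-II libraries were above all C-I libraries and all L-II libraries below all L-I libraries. Its log2 change was 2.94 (standard error 0.56, adjusted p = 0.000914) in the cotyledon and -4.18 (standard error 0.56, adjusted p = 0.000121) in the leaf, a difference of 7.13 (standard error 0.79, adjusted p = 6.61e-05).

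Cytochrome P450 81D (Glyma09g05440.1), a member of a family of monooxygenases, had 0, 7.91 and 3.21 at C-I and 87.1, 29.6 and 62.4 at C-II in the cotyledon. Its leaf values were 73.9, 38.7 and 54.3 at L-I and 3.37, 5.97 and 1.47 at L-II. No read of it was counted in replicate 1 of C-I, a library in which 1 read is worth 2.99 normalized counts. The change was 3.56 in the cotyledon and -3.23 in the leaf, a difference of 6.79 (standard error 0.83, adjusted p = 0.000154). Glyma03g20380.1, annotated to the nuclear transport factor 2 family with an RNA recognition motif, had 0, 3.52 and 3.61 at C-I and 38.1, 91.5 and 90.3 at C-II. It had 168, 247 and 366 at L-I and 47.1, 27.5 and 56.7 at L-II in the leaf. The groups did not overlap within either tissue, and the difference was 6.56 (standard error 0.71, adjusted p = 5.81e-05). Glyma02g08980.2, of the HSP20-like chaperones that bind unfolded proteins, had 0, 5.27 and 9.23 at C-I and 125, 56.2 and 86.3 at C-II. The corresponding leaf values were 59.7, 44.9 and 53.3 at L-I and 5.61, 7.16 and 8.83 at L-II. Its difference of 6.42 (standard error 0.79, adjusted p = 0.000152) combined a rise by 3.96 with a fall in the leaf (log2 change -2.46), again without overlap.

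In the reverse direction, 71 transcripts fell in the cotyledon and rose in the leaf (0.138% of those tested). A transcript of the tetratricopeptide repeat superfamily, Glyma13g44210.1, had the largest difference of all the annotated transcripts that met the rule for naming. It had 275, 288 and 186 at C-I and 0, 12.3 and 7.97 at C-II in the cotyledon. In the leaf its values were 0, 7.32 and 0.986 at L-I and 150.4, 134 and 459 at L-II. It was thus high in all libraries of C-I and L-II and at or near 0 in all libraries of C-II and L-I, without overlap. Its log2 change was -5.21 (standard error 0.76, adjusted p = 0.000105) in the cotyledon and 5.78 (standard error 0.76, adjusted p = 0.000105) in the leaf, and the difference was -10.99 (standard error 1.07, adjusted p = 2.81e-05).

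LOB domain-containing protein 41 (Glyma08g48040.2), a plant-specific transcription factor, had 355, 223 and 377 at C-I and 27.2, 19.7 and 21.3 at C-II. Its leaf counts were 8.52, 1.05 and 4.93 at L-I and 127, 189.9 and 28.7 at L-II. Replicate 3 of L-II was the lowest of its stage, and the difference of -7.36 (standard error 0.78, adjusted p = 4.66e-05) was -8.13 without it. The B-box zinc finger protein with a CCT domain (Glyma10g42090.1) belongs to the family of CONSTANS, which in Arabidopsis links day length to flowering. It had 737, 445 and 706 at C-I and 43.5, 32.4 and 34.5 at C-II in the cotyledon. Leaf libraries of it held 11.4, 2.09 and 6.91 at L-I and 42.7, 27.5 and 67 at L-II. Both organs changed without overlap, with a difference of -6.34 (standard error 0.56, adjusted p = 1.33e-05). Another tetratricopeptide repeat transcript, Glyma07g03427.1, had 5.97, 52.7 and 16.9 at C-I and 0, 2.46 and 5.31 at C-II. The leaf libraries held 2.84, 29.3 and 19.7 at L-I and 476, 423 and 199.5 at L-II. Its C-II libraries were all below its C-I libraries, by a narrow margin (5.31 against 5.97), and its difference was -6.77 (standard error 1.04, adjusted p = 0.000826).

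**Figure D2:**
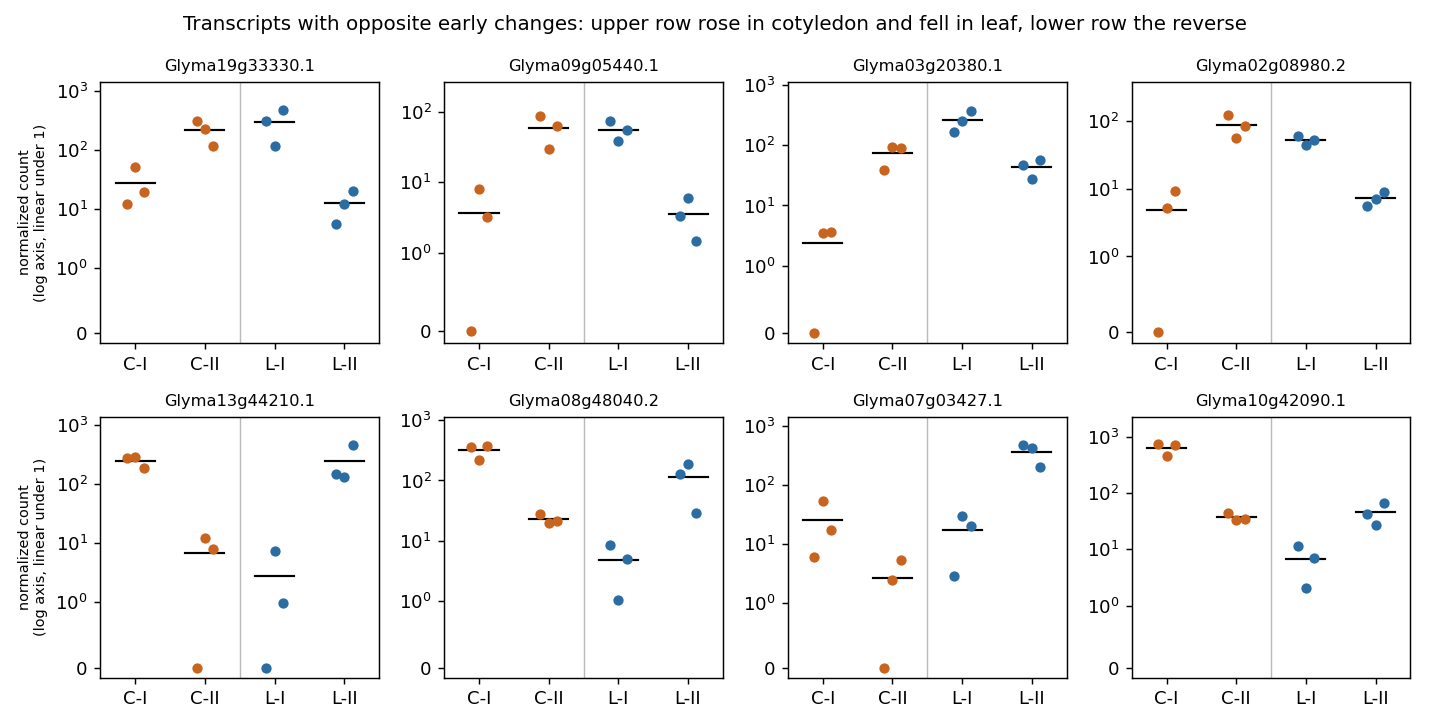
Normalized counts (vertical axis, logarithmic above 1 and linear below) of the 8 transcripts with opposite changes in each C-I, C-II, L-I and L-II library, 3 points a stage, with the stage mean as a bar; the tissues were scaled separately and their levels are not comparable. In the upper row C-II lies above C-I and L-II below L-I in all libraries, and in the lower row the order is reversed.

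Large differences also arose where a single organ changed. Glyma06g14430.1, annotated as response to low sulfur 2 after an Arabidopsis protein induced by sulfur shortage, had 2.99, 36 and 24.9 at C-I and 569, 505 and 772 at C-II. Counts in the leaf were 494, 139 and 255 at L-I and 174, 221 and 43.4 at L-II, and the stages overlapped. The cotyledon rise was 5.02 (standard error 0.66, adjusted p = 4.61e-05) and the difference was 6.12 (standard error 0.94, adjusted p = 0.00081). Zinc finger protein 512b (Glyma13g27050.1) had 8.96, 8.79 and 147 at C-I and 16.3, 0.821 and 9.3 at C-II in the cotyledon. The cotyledon stages overlapped, with replicate 3 of C-I far above the others. Its leaf values were 4359, 1357 and 1916 at L-I and 10.1, 9.55 and 8.83 at L-II, a log2 change of -7.49 (standard error 0.81, adjusted p = 2.06e-05). The difference was 5.92 (standard error 1.15, adjusted p = 0.00414).

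Abscisic acid 8'-hydroxylase 1 (Glyma13g33780.1), the enzyme that begins the breakdown of the hormone abscisic acid, had 313, 785 and 251 at C-I and 177, 240.1 and 234 at C-II. The leaf had 17, 19.9 and 12.8 at L-I and 1971, 2333 and 1280.3 at L-II. The leaf rise was 6.54 (standard error 0.36, adjusted p = 4.7e-08), whereas the cotyledon change was -0.87 with no call, and the difference was -7.41 (standard error 0.51, adjusted p = 2.48e-06). Glyma16g22488.1, of the pectin lyase-like superfamily of wall enzymes, had 23.9, 176 and 2.01 at C-I and 76.2, 27.1 and 47.8 at C-II, and replicate 2 of C-I was far above the others. Its leaf libraries held 2.84, 4.18 and 1.97 at L-I and 810.4, 958 and 435 at L-II, a rise without overlap. Its difference of -6.15 (standard error 1.21, adjusted p = 0.00456) lost the call when all 24 libraries of the series entered the fit (adjusted p = 0.058).

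Genes of the chloroplast differed in the direction of a deeper fall in the cotyledon. Of 103 transcripts of chlorophyll biosynthesis genes, 26 were called below and 1 above, with a median difference of -1.24. In the cotyledon 72 of them fell and 0 rose (median -2.10), against 9 that fell and 1 that rose in the leaf (median -0.89). Of 242 photosynthesis transcripts, 29 were called below and 6 above (median -0.72), with 90 falls and 6 rises in the cotyledon and 7 falls and 0 rises in the leaf. The study chose both lists from genes that fell between later stages of its leaf series, so their leaf direction is not independent evidence. A choice on a late leaf fall can also favor few leaf calls from L-I to L-II, and so calls below. Calls below and above were 25.2% and 0.971% for chlorophyll biosynthesis and 12% and 2.48% for photosynthesis. Over all transcripts tested they were 4.11% and 6.06%. In the cotyledon 69.9% and 37.2% of these 2 lists fell, against 10.9% of all transcripts tested. In the leaf 8.74% and 2.89% fell, against 7.62%. Over all transcripts the median cotyledon change was -0.07 and the median leaf change -0.04.

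The size of this pattern depended on single leaf libraries. Summed over the chlorophyll biosynthesis list, the normalized counts were 83016, 78946 and 77413 at C-I and 15074, 19516 and 23230 at C-II. In the leaf the sums were 71113, 44983 and 60283 at L-I and 53844, 38238 and 15276 at L-II. The cotyledon stages were far apart, while at L-II replicate 3 had the lowest sum of the leaf and replicate 1 lay within the range of L-I. Without replicate 3 of L-II, 55 chlorophyll biosynthesis transcripts were called below and 0 above (median -1.68), and so were 87 photosynthesis transcripts, with 7 above (median -1.35). In the leaf 3 chlorophyll biosynthesis and 2 photosynthesis transcripts then fell and 0 rose, and the median leaf change of the photosynthesis list was 0.03. Without replicate 1 of L-II 12 photosynthesis transcripts were called below (median -0.39), and without replicate 1 of C-I 13 of chlorophyll biosynthesis. Without replicate 3 of L-I 2 photosynthesis transcripts were called above. Both medians stayed below 0 with each of the 12 libraries left out in turn.

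Protochlorophyllide oxidoreductase A (Glyma06g38160.1) carries out the light-dependent step of chlorophyll synthesis and is known from etiolated seedlings. It had 16760.3, 18909.5 and 15493 at C-I and 479, 662 and 1017 at C-II. The leaf counts were 1139, 335 and 1025 at L-I and 1391, 377 and 223 at L-II, where the stages overlapped. The log2 change was -4.62 (standard error 0.57, adjusted p = 2.36e-05) in the cotyledon and the difference -4.05 (standard error 0.80, adjusted p = 0.00468). PsbP-like protein 2 (Glyma20g38370.1), related to an extrinsic subunit of photosystem II, had 152, 162 and 114 at C-I and 0, 4.93 and 2.66 at C-II in the cotyledon. Its leaf counts of 34.1, 12.5 and 14.8 at L-I and 19.1, 14.3 and 4.42 at L-II overlapped, and its difference was -4.45 (standard error 0.78, adjusted p = 0.00212).

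The light-harvesting proteins, which bind most of the chlorophyll, were less uniform. Of 45 transcripts 14 fell and 0 rose in the cotyledon, 0 were called in the leaf at the size limit, and 1 was called below and 0 above (2 each at an unadjusted p-value under 0.05), a share under the background. Their summed level was 122421, 89546 and 117217 at C-I and 80593, 111797 and 127528 at C-II, so these stages overlapped. At L-I it was 175187, 119584 and 188643 and at L-II 196442, 145071 and 39745. Their median difference of -0.33 was -0.91 without replicate 3 of L-II, with 10 transcripts called below and 1 above, and 0.12 without replicate 1 of L-II. The transcript called was Glyma16g27995.1, of a light-harvesting complex II subunit, with 5216, 3478 and 5156 at C-I and 8.16, 29.96 and 45.2 at C-II. It had 8508, 3389 and 7848 at L-I and 6297, 2990.2 and 172 at L-II in the leaf. Its difference of -5.39 (standard error 1.32, adjusted p = 0.0157) was -6.94 without replicate 3 of L-II and lost the call without the filter on low values (adjusted p = 0.095). Only reads unique to a transcript were counted, so a member of this family of close copies was seen through part of its sequence. Of 9 transcripts of the rubisco genes, 5 fell in the cotyledon and 1 rose in the leaf. The limma test called 0 of them different in either direction, also at an unadjusted p-value under 0.05, and, without replicate 3 of L-II, 3 below, with 0 rises in the leaf.

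A few transcripts of these lists went against the rest. Myo-inositol-1-phosphate synthase 1 (Glyma08g14670.1), which makes the precursor of inositol and was placed in the photosynthesis list, had 2.99, 2.64 and 19.3 at C-I and 161, 159.7 and 147 at C-II. Its leaf libraries held 159, 992 and 875 at L-I and 456, 478 and 94.2 at L-II and overlapped. The difference was 5.04 (standard error 0.997, adjusted p = 0.00465). Over the full set of green tissue markers, 19 of 54 transcripts fell in the cotyledon and 0 in the leaf. Their summed level lay between 107530 and 152389 at C-I, between 86163 and 133762 at C-II, between 140829 and 210561 at L-I and between 43105 and 218049 at L-II. In bulk tissue, fewer cells of a type and less RNA per cell cannot be told apart. The part of these markers in the results was not tested.

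**Figure D3:**
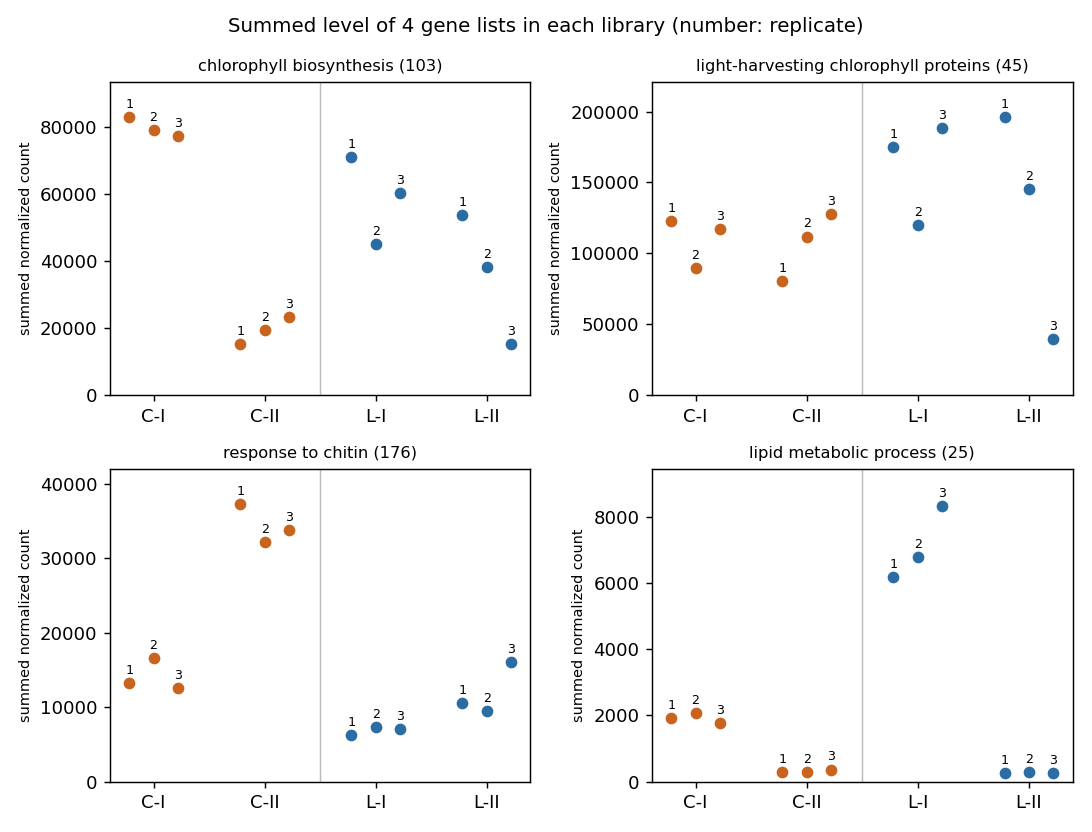
Summed normalized count (vertical axis) of 4 gene lists in each C-I, C-II, L-I and L-II library, 1 point a library with its replicate number; tissues were scaled separately. The chlorophyll biosynthesis sum drops in all 3 C-II libraries, the light-harvesting sum is lowest in replicate 3 of L-II, the chitin sum is higher at C-II than at C-I, and the lipid sum drops in both organs.

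Genes of wall loosening and surface lipids mostly fell in the leaf, many of them fell in the cotyledon too, and calls above outnumbered calls below. All 25 tested transcripts of the lipid metabolic process list fell in the leaf (median -4.17) and 17 fell in the cotyledon (median -2.69). Of the 25, 10 were called above and 0 below, with a median difference of 1.18. The study chose this list, and those of cell wall loosening and polygalacturonase, for their fall in these leaf libraries, so their leaf fall is not independent evidence, and the choice itself favors calls above. Among 22 GDSL lipases, many of which act on cutin and other surface lipids, 9 were called above and 0 below. At an unadjusted p-value under 0.05 in limma, 2 transcripts of each of these lists were below. Of the lipases 19 fell and 3 rose in the leaf, while 11 fell and 1 rose in the cotyledon. Every lipase tested thus had a leaf call, while 4.22% of all transcripts tested rose in the leaf and 7.62% fell. The lipases were found by annotation text, which came largely from genes that changed in the leaf libraries. Their leaf changes are thus not independent evidence, and this choice also favors calls above.

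Expansins loosen the growing wall. They too were found by annotation text, so their leaf changes are not independent evidence. Of 14 transcripts 11 fell and 3 rose in the leaf, 5 fell and 0 rose in the cotyledon, 5 were called above and 4 below, and so they did not go one way (median 1.04, and 0.59 without replicate 3 of L-I). For the 10 cell wall loosening transcripts the counts were 4 above and 2 below, and for the 14 polygalacturonase transcripts, whose products cut pectin, 4 above and 2 below (1 below without replicate 2 of L-I). Expansin A1 (Glyma02g12140.1) had 20.9, 49.2 and 67.8 at C-I and 27.2, 41.9 and 47.8 at C-II in the cotyledon. Leaf libraries of it held 759, 1243 and 726 at L-I and 39.3, 44.2 and 22.8 at L-II. Only the leaf change was called, with -4.56 (standard error 0.38, adjusted p = 2.03e-06), and the difference was 4.44 (standard error 0.54, adjusted p = 0.000146).

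Members of the GDSL family showed the same pattern. The lipase Glyma13g42960.1 had 194, 242 and 140.5 at C-I and 196, 179.8 and 262 at C-II. Its leaf values of 1776, 1301 and 1601 at L-I and 220.0, 235 and 219 at L-II did not overlap, and the difference was 2.92 (standard error 0.35, adjusted p = 0.000124). Glyma16g07430.1 had 77.6, 91.4 and 60.6 at C-I and 78.9, 30.4 and 19.9 at C-II in the cotyledon. It had 418, 199.6 and 361 at L-I and 19.1, 19.1 and 1.47 at L-II in the leaf, and its difference of 3.66 (standard error 0.82, adjusted p = 0.00975) was 2.85 without replicate 3 of L-II and lost the call without the filter on low values (adjusted p = 0.061). Polygalacturonase 2 (Glyma02g03960.1) went the other way and fell further in the cotyledon. It had 1194, 1030.0 and 1243 at C-I and 46.3, 48.8 and 31.9 at C-II there. Counts in the leaf were 605, 349 and 685 at L-I and 79.7, 70.5 and 44.2 at L-II, also without overlap. The difference of -1.68 (standard error 0.41, adjusted p = 0.0163) was -1.39 and under the size limit without replicate 2 of L-I, and not called with all 24 libraries (adjusted p = 0.081).

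The transcript of indole-3-acetic acid inducible 14 (Glyma03g31530.1), an Aux/IAA repressor of auxin response, had 8.96, 15.8 and 40.1 at C-I and 19, 32.8 and 43.8 at C-II. Its leaf values were 335, 348 and 313 at L-I and 49.4, 130.2 and 32.4 at L-II, a fall without overlap, while the cotyledon stages overlapped. The difference of 3.05 (standard error 0.69, adjusted p = 0.00989) was not called without the filter on low values (adjusted p = 0.055). In the Aux/IAA family 2 of 5 transcripts were called above and 0 below (4 and 0 at an unadjusted p-value under 0.05, and 3 called above without replicate 2 of L-II). Of 8 SAUR transcripts, from a family of small genes quickly induced by auxin, 4 were called above and 1 below. Over all transcripts tested 6.06% were called above and 4.11% below. The Aux/IAA and SAUR transcripts were found by annotation text, which came largely from genes that changed in the leaf libraries. Their leaf changes are thus not independent evidence, and this choice can favor calls. The SAUR transcript Glyma16g02350.1 had 26.9, 30.8 and 22.9 at C-I and 1516, 1791 and 3026 at C-II. It had 145, 248 and 159 at L-I and 987, 762 and 423 at L-II in the leaf, and both organs rose without overlap. The cotyledon change was the larger, by 4.16 (standard error 0.47, adjusted p = 8.23e-05).

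Epidermis and cuticle markers were mostly the GDSL lipases described above, so their changes are not a separate observation. Of 33 marker transcripts 25 were tested, with 22 falls and 3 rises in the leaf and 12 falls and 1 rise in the cotyledon. Their summed level was between 1737 and 2067 at C-I, between 1193 and 1399 at C-II, between 8013 and 9645 at L-I and between 607 and 829.9 at L-II. No read was counted in any C-II library for 9 of the 33, nor in any L-II library for 8. The 22 GDSL lipases are among the 25. All these markers were found by annotation text, so their leaf changes are not independent evidence. The part of these markers in the results was not tested.

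Lists for cellulose, xylan, lignin and the secondary wall had few called differences between the organs, which does not show that their changes were alike. Median differences were 0.31 for cellulose, 0.61 for xylan, -0.26 for lignin and -0.59 for the secondary wall. The xylan median was 0.19 without replicate 1 of C-I. Without replicate 2 of L-II the medians were 0.07 for lignin and 0.01 for the secondary wall. Of 21 cellulose biosynthesis transcripts 7 fell in each organ and 1 was called above and 0 below (2 below at an unadjusted p-value under 0.05). The counts above and below were 3 and 2 of 32 for xylan, 1 and 1 of 23 for lignin and 0 and 1 of 23 for secondary cell wall biogenesis. These shares, from 0% to 9.38%, lay around the background of 6.06% and 4.11%, and the calls above for xylan ranged from 1, without replicate 2 of C-II, to 5, without replicate 2 of L-II. The xylem markers summed to values between 67 and 80.9 at C-I and between 12 and 20.9 at C-II. They lay between 222 and 477 at L-I and between 48.6 and 432 at L-II, with the lowest value in replicate 3. Of their 9 transcripts tested 4 fell and 0 rose in each organ.

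**Figure D4:**
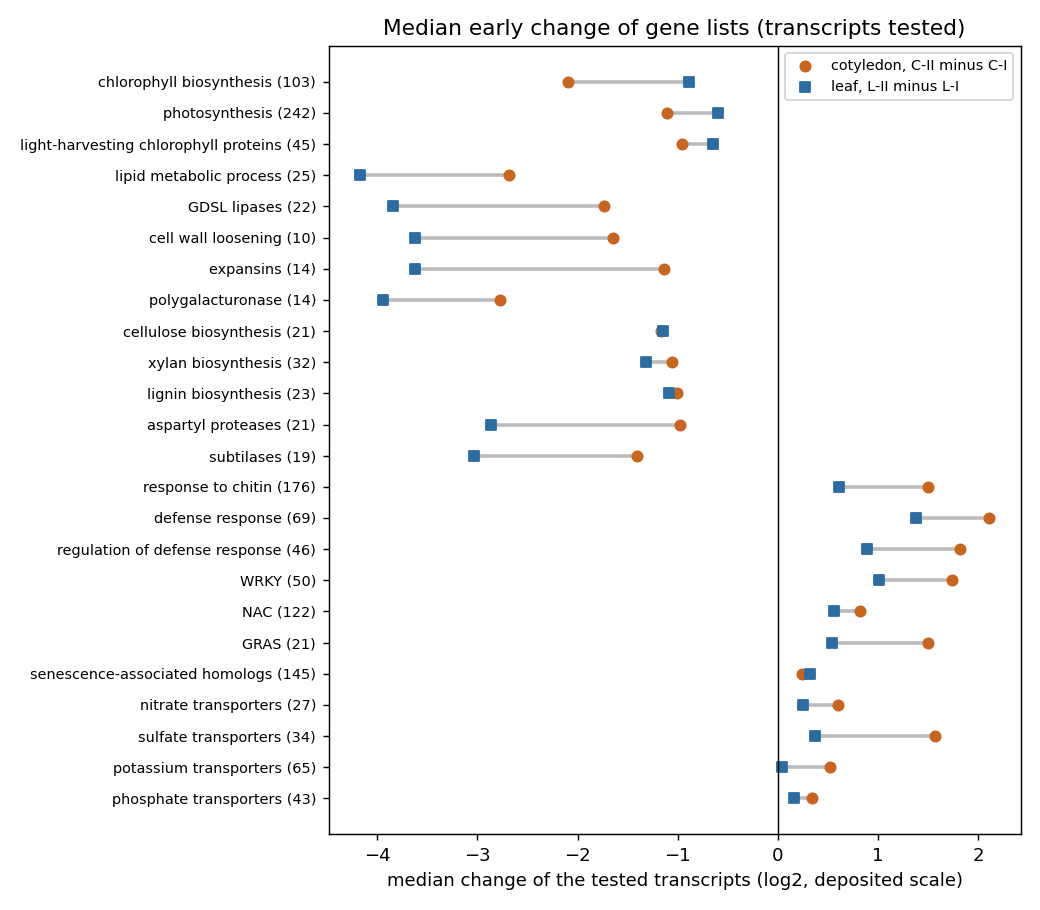
Median log2 change on the deposited scale (horizontal axis) of the tested transcripts of 24 gene lists, circles for the cotyledon and squares for the leaf. For the lipid metabolic process list the square is at -4.17 and the circle at -2.69, while for chlorophyll biosynthesis the circle is at -2.10 and the square at -0.89.

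Many defense genes rose in the cotyledon and fewer passed the test for a rise in the leaf. Of 176 response to chitin transcripts, 81 rose and 2 fell in the cotyledon, 21 rose and 2 fell in the leaf, and 37 were called above (21.0%) and 3 below. Their median difference was 1.003. In the defense response list 51 of 69 rose in the cotyledon and 22 in the leaf, with 0 falls in either, and 8 were called above and 1 below. Of 46 transcripts for the regulation of defense response, 30 rose and 0 fell in the cotyledon, 6 rose and 0 fell in the leaf, and 12 were called above and 1 below. The chitin list shares 17 genes with the regulation of defense response list and 0 with the defense response list. The study took all 3 from genes that changed in the leaf libraries, so their leaf direction is not independent evidence. The chitin and regulation of defense response lists came from genes that rose between later leaf stages. That choice can favor few leaf calls from L-I to L-II, and so calls above. The leaf rises depended on replicate 3 of L-II, since without it 8 chitin, 13 defense response and 1 regulation of defense response transcripts rose in the leaf. The calls above were then 48, 15 and 15, and without replicate 1 of C-II the defense response list had 4 and the regulation of defense response list 6. The calls below were 5 for chitin without replicate 2 of L-I and 2 for defense response without replicate 3 of L-II.

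The summed level of the chitin list was 13205, 16582 and 12607 at C-I and 37291, 32223 and 33805 at C-II. In the leaf it was 6214, 7334 and 7124 at L-I and 10572, 9473 and 16122 at L-II, highest in replicate 3. Both organs thus had their stages apart. Myb domain protein 73 (Glyma11g05550.1), a transcription factor, had 23.9, 107 and 79.1 at C-I and 797, 1099 and 1393 at C-II. In the leaf 142, 439.9 and 209 at L-I and 189.7, 130.2 and 389 at L-II overlapped. The difference was 4.24 (standard error 0.73, adjusted p = 0.00184).

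The ethylene-forming enzyme (Glyma14g05390.2) catalyzes the last step of ethylene synthesis. It had 2.99, 3.52 and 3.61 at C-I and 226, 137 and 128 at C-II, a rise without overlap. Its leaf values of 14.2, 44.9 and 19.7 at L-I and 40.4, 35.8 and 48.6 at L-II overlapped, and its difference was 3.93 (standard error 0.52, adjusted p = 0.000261). Glyma20g02472.1 is annotated as a disease resistance protein of the TIR-NBS-LRR class, intracellular receptors of pathogen proteins. The cotyledon libraries held 0, 3.52 and 3.21 at C-I and 332, 168 and 223 at C-II. The leaf libraries held 5.68, 14.6 and 14.8 at L-I and 31.4, 14.3 and 92.8 at L-II, with the stages overlapping, and the difference was 4.36 (standard error 0.85, adjusted p = 0.00422).

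Among the transcription factor families, WRKY and GRAS transcripts had calls above, and NAC transcripts had calls above and, at a share near the background, calls below. Over all transcripts tested 6.06% were called above and 4.11% below. The WRKY and GRAS lists were found by annotation text, which came largely from genes that changed in the leaf libraries. Their leaf changes are thus not independent evidence, and this choice can favor calls. The NAC list was not chosen in this way, so its shares are not comparable with theirs. Of 50 WRKY transcripts 29 rose and 1 fell in the cotyledon, 14 rose and 1 fell in the leaf, and 8 were called above (16%) and 0 below. Without replicate 3 of L-II 16 were called above, and without replicate 1 of C-I 5 were. At an unadjusted p-value under 0.05 in limma, 20 were above and 0 below. WRKY DNA-binding protein 70 (Glyma18g44560.1), which in Arabidopsis acts in salicylic acid signaling and in senescence, had 0, 8.79 and 15.3 at C-I and 2354, 1542 and 1598 at C-II. It had 34.1, 13.6 and 18.7 at L-I and 202, 93.1 and 554 at L-II in the leaf. Both organs rose, by 7.95 and 3.22, and the difference of 4.72 (standard error 1.02, adjusted p = 0.00777) lost the call without the filter on low values (adjusted p = 0.060). Of 21 GRAS transcripts, from a family of plant growth regulators, 8 rose and 2 fell in the cotyledon, 2 rose and 1 fell in the leaf (0 and 1 without replicate 3 of L-II), and 5 were called above and 0 below (8 and 1 at an unadjusted p-value under 0.05). SCARECROW-like 8 (Glyma10g37640.1) of this family had 5.97, 6.15 and 4.42 at C-I and 98, 167 and 187 at C-II. The leaf had 22.7, 26.1 and 14.8 at L-I and 38.2, 43 and 22.8 at L-II, with overlap, and its difference was 3.49 (standard error 0.48, adjusted p = 0.000337).

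Of 122 NAC transcripts tested, 17 were called above (13.9%) and 7 below (5.74%). Over all transcripts tested the shares were 6.06% and 4.11%, so the NAC calls below were near the background. In the cotyledon 37 rose and 3 fell, and in the leaf 22 rose and 9 fell. The list holds genes annotated as NAC, whether or not they changed. The calls below numbered from 2, without replicate 2 of C-I, to 5 in the fits that left out a library. NAC domain containing protein 1 (Glyma15g40510.1) had 0, 8.79 and 1.61 at C-I and 389, 484 and 628 at C-II in the cotyledon. Its leaf libraries held 2.84, 10.5 and 9.86 at L-I and 15.7, 20.3 and 11 at L-II, again without overlap but by a narrow margin. The difference was 5.89 (standard error 0.79, adjusted p = 0.000299).

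Other NAC transcripts showed the reverse. Glyma14g24220.1, of the No Apical Meristem type, had 576, 574 and 440.4 at C-I and 84.4, 102 and 89 at C-II. In the leaf 165, 146 and 174 at L-I and 212, 149 and 198 at L-II overlapped, and the difference was -2.67 (standard error 0.31, adjusted p = 0.000108). NAC domain containing protein 2 (Glyma06g38440.2) had 80.6, 76.5 and 83.5 at C-I and 182, 243 and 228 at C-II. It had 2.84, 9.41 and 4.93 at L-I and 93.2, 84.8 and 118 at L-II in the leaf. The stages did not overlap in either organ. Its log2 change was 3.62 in the leaf and 1.39, under the size limit, in the cotyledon, a difference of -2.23 (standard error 0.41, adjusted p = 0.00292).

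Nutrient transporters had more rises than falls in the cotyledon. Over all transcripts tested 9.34% rose and 10.9% fell there, and 6.06% were called above and 4.11% below. The 5 families were listed by the study whether or not they changed. Of 34 sulfate transporter transcripts 16 rose and 2 fell in the cotyledon, 8 rose and 0 fell in the leaf, and 5 were called above and 0 below (14 and 1 at an unadjusted p-value under 0.05, 2 above without replicate 1 of C-I, 4 above and 2 below without replicate 3 of L-II). Of 27 nitrate transporter transcripts 5 rose and 3 fell in the cotyledon, 2 rose and 3 fell in the leaf, and 5 were called above and 2 below (2 above without replicate 1 of C-II). In the leaf 1 nitrate transcript rose and 1 fell without replicate 3 of L-II. The counts above and below were 2 and 0 of 9 for ammonium, 7 and 3 of 65 for potassium and 3 and 1 of 43 for phosphate. Calls above were 14.7% for sulfate, 18.5% for nitrate, 22.2% for ammonium and 10.8% for potassium. The potassium calls below (4.62%), the phosphate calls (6.98% and 2.33%) and the nitrate falls in the cotyledon (11.1%) were near the background. Nitrate calls below were 7.41%. In the cotyledon 5 ammonium, 10 potassium and 9 phosphate transcripts rose, and 0, 5 and 3 fell. Without replicate 1 of C-I, 1 ammonium transcript was called above and 1 nitrate and 1 potassium transcript below, and without replicate 3 of L-II 5 phosphate transcripts were called above. Median differences were 1.09 for sulfate, 0.78 for nitrate, 1.02 for ammonium, 0.51 for potassium and 0.47 for phosphate. Each rested in part on 1 library. Without replicate 3 of L-II the medians were 0.66 for sulfate, 0.47 for nitrate and 0.26 for potassium, without replicate 1 of L-II 0.48 for ammonium, and without replicate 1 of C-I 0.14 for phosphate.

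Nitrate transporter 1.1 (Glyma11g03430.1), in Arabidopsis both a carrier and a sensor of nitrate, had 8.96, 10.5 and 7.63 at C-I and 335, 405 and 588 at C-II. It had 45.5, 103 and 77.9 at L-I and 242, 305 and 134 at L-II in the leaf. Both organs rose without overlap, the cotyledon by 5.15 and the leaf by 1.54, with a difference of 3.61 (standard error 0.49, adjusted p = 0.000318). K+ transporter 1 (Glyma06g07470.1), annotated to potassium transport, had 0, 0 and 2.81 at C-I and 54.4, 58.7 and 73.1 at C-II. In the leaf 25.6, 44.9 and 44.4 at L-I and 58.4, 29.9 and 40.5 at L-II overlapped, and the difference was 4.50 (standard error 0.63, adjusted p = 0.000411). Sulfate transporter 4.1 (Glyma18g52270.1), which in Arabidopsis releases sulfate from the vacuole, had 35.8, 32.5 and 39.3 at C-I and 278, 257 and 224 at C-II. Its leaf values were 22.7, 30.3 and 24.7 at L-I and 35.9, 66.9 and 61.8 at L-II, without overlap in either organ, and the difference of 1.74 (standard error 0.37, adjusted p = 0.00762) was 1.48, under the size limit, without replicate 1 of L-II.

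Sulfate assimilation rose in both organs. Of 10 transcripts 7 rose in the cotyledon and 10 in the leaf with 0 falls, and 3 were called above and 0 below, although the median difference was -0.52 (1 above without replicate 3 of C-I). The median was -1.28 without replicate 3 of L-II and -0.08 without replicate 1 of L-I, and 1 transcript was called below without replicate 3 of L-II and 1 without replicate 2 of L-I. The study chose this list on the leaf libraries. ATP sulfurylase 1 (Glyma10g38760.1), the enzyme that activates sulfate, had 32.8, 42.2 and 49.8 at C-I and 1932, 2488 and 3424 at C-II. Its leaf libraries held 93.8, 206 and 148 at L-I and 1412, 1492 and 1200.0 at L-II. It rose by 5.84 in the cotyledon and 3.23 in the leaf, a difference of 2.61 (standard error 0.42, adjusted p = 0.00115). All 4 transcripts of the asparagine synthetases, which make the main transport form of nitrogen in many legume seedlings, rose in both organs, with median changes of 6.003 and 5.11, with a median difference of 1.25 and 3 of the 4 differences above 0. The limma test called 1 of them below and 0 above (1 and 0 at an unadjusted p-value under 0.05). The call below was lost without replicate 2 of C-I, and 1 was called above without replicate 1 of L-I. The median difference was 0.83 without replicate 3 of L-I.

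Homologs of Arabidopsis senescence-associated genes did not go one way. Of 145 transcripts 10 were called above (6.9%) and 18 below (12.4%), and the median difference was 0.002. Over all transcripts tested the shares were 6.06% and 4.11%, so the calls above were near the background and the calls below over it. In the cotyledon 27 rose and 22 fell, and in the leaf 11 rose and 10 fell. Without replicate 1 of C-I the calls above were 4, and without replicate 3 of C-II the calls below were 12. Non-yellowing 1 (Glyma11g02980.1), which starts the breakdown of chlorophyll by removing its magnesium, had 14.9, 22 and 15.7 at C-I and 889.8, 841 and 952 at C-II. The leaf counts were 105, 241 and 141 at L-I and 199.8, 284 and 404 at L-II, with overlapping stages. It rose by 5.44 (standard error 0.31, adjusted p = 2.61e-08) in the cotyledon, and the difference was 4.56 (standard error 0.44, adjusted p = 2.65e-05).

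Catalase 2 (Glyma06g02040.4), which removes hydrogen peroxide, went the other way. Its counts were 982, 653 and 855 at C-I and 316, 293 and 218 at C-II in the cotyledon. In the leaf they were 102, 217 and 158 at L-I and 514, 521 and 280.5 at L-II, and neither organ overlapped. The cotyledon fell (log2 change -1.58), the leaf change of 1.45 was just under the size limit, and the difference was -3.03 (standard error 0.44, adjusted p = 0.000588).

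Protease families had more transcripts above than below. Of 21 aspartyl protease transcripts 7 were called above (33.3%) and 0 below, with 5 rises and 8 falls in the cotyledon and 4 rises and 12 falls in the leaf. Of 19 subtilases, serine proteases of the cell wall and vacuole, 3 were called above and 0 below (5 above without replicate 3 of L-II, 2 below without replicate 1 of C-II). At an unadjusted p-value under 0.05 the aspartyl proteases had 9 above and 0 below and the subtilases 8 above and 3 below. The subtilases called above were 2 without replicate 1 of C-I. The aspartyl protease Glyma08g43330.1 had 104, 139 and 97.9 at C-I and 7703, 11861 and 11215 at C-II. It had 54, 402 and 266 at L-I and 2299.7, 1840.2 and 1229 at L-II in the leaf, and both organs rose without overlap. The difference of 3.21 (standard error 0.74, adjusted p = 0.0114) lost the call without the filter on low values (adjusted p = 0.066). Of the subtilases 3 rose and 15 fell in the leaf and 2 rose and 9 fell in the cotyledon. Over all transcripts tested 6.06% were called above and 4.11% below. Members of both families were found by their annotation text, which came largely from genes that changed in the leaf libraries. Their leaf changes are thus not independent evidence. With more falls than rises in the leaf, this choice also favors calls above.

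Genes linked to seed reserves by annotation text were few, and this text covered 2877 of the 37174 genes tested. The 12 tested seed reserve markers were annotated as late embryogenesis abundant proteins, many of them of the hydroxyproline-rich glycoprotein family, which is also found in vegetative tissue. None of the 12 was annotated as a glycinin, conglycinin or oleosin, so these genes are not described here. Of the 12, 6 rose and 1 fell in the cotyledon, 2 rose and 3 fell in the leaf, and 3 were called above and 0 below (8 and 0 at an unadjusted p-value under 0.05, and 5 called above without replicate 1 of C-I). Their summed normalized count lay between 478 and 677 at C-I and between 1303 and 1641 at C-II, without overlap. The seed storage and oil body list held these 12 and 2 transcripts of Kunitz protease inhibitors, and 4 of its 14 were called above and 1 below. Its sum went the other way, from values between 3397 and 4377 at C-I to values between 1327 and 1682 at C-II. In the leaf this sum lay between 1057 and 1296 at L-I and between 254 and 432 at L-II. Of 4 amylases, which digest starch, 2 rose in the cotyledon, 3 rose in the leaf and 1 was called below (0 without replicate 1 of C-I, 2 without replicate 2 of L-I). Of 21 lipoxygenases, which oxidize fatty acids and include vegetative storage proteins of soybean, 3 were called above and 0 below (3 and 0 also at an unadjusted p-value under 0.05), 3 rose and 1 fell in the cotyledon, and 2 rose and 2 fell in the leaf. In the leaf 4 lipoxygenases rose without replicate 3 of L-II, and 1 was then called below. The lipoxygenase sum at L-II was 34207, 26451 and 5378, lowest in replicate 3.

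**Figure D5:**
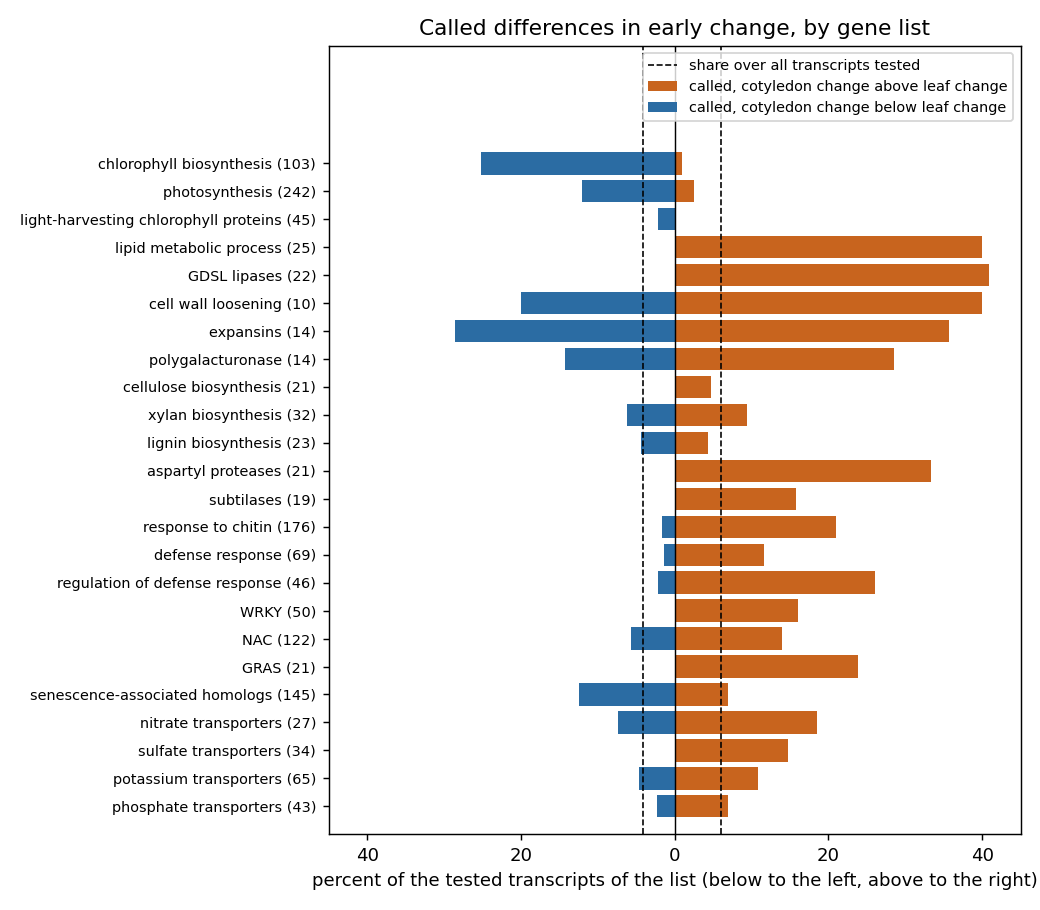
Percent of the tested transcripts of each of 24 gene lists (horizontal axis) whose change was called above the leaf change (bars to the right) or below it (bars to the left), with the shares over all 51389 transcripts, 6.06% and 4.11%, as dashed lines. Among the lists of over 20 transcripts shown, chlorophyll biosynthesis reaches furthest to the left with 25.2% and GDSL lipases furthest to the right with 40.9%.

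Few transcripts with a call in both organs could be shown to change alike. The 95% interval of the difference lay within 1 log2 unit of 0 for 21 transcripts that rose in both organs and 21 that fell in both, each 0.0409% of those tested. Any other transcript with a call in both organs is therefore not shown to have changed equally. Transcripts without a call in both organs were not counted, whatever their interval. By adjusted p-value alone, without the size limit, 125 transcripts rose alike and 106 fell alike. Flavanone 3-hydroxylase (Glyma02g05450.1), an enzyme of flavonoid synthesis, had 65.7, 72.9 and 65 at C-I and 2.72, 4.51 and 6.64 at C-II. Leaf libraries of it held 421, 322 and 374 at L-I and 26.9, 37 and 41.2 at L-II. It fell by a similar amount in both organs, with changes of -3.25 and -3.31 and an interval of the difference from -0.76 to 0.88.

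Cellulose synthase-like B4 (Glyma12g31810.1) had means of 1385 ± 85.5 to 243 ± 25.6 from C-I to C-II and 332 ± 35.2 to 66.7 ± 10.8 from L-I to L-II (SD, n = 3). Its interval was -0.87 to 0.41. Dehydroascorbate reductase 2 (Glyma20g38440.1), which regenerates ascorbate, had an interval of -0.95 to 0.80 and fell from means of 306 ± 55.6 to 57.5 ± 10.02 and of 285 ± 106 to 55.6 ± 16.2. Among the rises, the RING/FYVE/PHD zinc finger protein Glyma05g31600.1 rose by 2.11 and 2.08 (interval of the difference -0.83 to 0.88). The dual specificity protein phosphatase Glyma19g30950.1 rose by 2.10 and 2.01 (interval -0.81 to 0.99), and the PQ-loop membrane protein Glyma16g07110.1 by 1.89 and 1.95 (interval -0.96 to 0.84).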

How the data were processed

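RNA of 12 of the 24 libraries of the series was used, 3 each at C-I, C-II, L-I and L-II. The authors aligned reads to soybean transcripts with Bowtie, counted reads that mapped to a single transcript, and deposited values on the log2 scale after the size factors and variance-stabilizing transformation of DESeq 1.0, in one table for each tissue. Normalized counts and reads were recovered from these values. Of the low values 100% came out as whole reads within a tolerance of 0.05. Paralogs are seen through their unique reads only. One read was worth 0.401 to 2.99 normalized counts in the cotyledon and 0.736 to 2.84 in the leaf, which limits the precision of transcripts with few reads.

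A linear model with 4 stage means was fitted to the deposited log2 values with limma 3.58.1 (R 4.3.3, intensity trend), with Benjamini-Hochberg adjustment over all 51389 transcripts. A call needed an adjusted p-value under 0.05 and a log2 size over 1.5. The difference between the tissues was a contrast in this model.

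Gene lists came from the supplementary sheets of the study and from annotation text, which covered 2877 of the 37174 genes tested, largely genes that changed in leaf. Leaf changes of lists found by this text are therefore not independent evidence. The members and lists were chosen with earlier results of these data known. Lists are described by counts and medians without a set test. Genes were named by a rule. Each had annotation text, a difference also called on log2(normalized count + 1), more than 3 reads in a library of each stage and single-library changes that did not overlap between tissues. Of these, the 6 largest differences in each direction, the 4 largest opposite changes in each direction, up to 2 for each list and direction, and, of transcripts changed alike (for which the limits on annotation and reads alone applied), the 3 largest rises and falls were taken. This gave 86 transcripts, of which 43 are named. The tables hold no coordinates, and no sequence was used here.

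Alternatives were log2 of the normalized count plus 1 or 5, all transcripts without a filter, a stricter filter (mean normalized count from 10 upward), other scalings of the libraries, all 24 libraries, weights per group, a replicate block, adjusted p-values alone, summed genes, and each library left out. Replicate numbers did not pair the samples.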

Additional observations from a re-analysis of the deposited data

Results flagged for a closer look

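For 37 of the 43 transcripts named, the rule for naming required a called difference in early change between cotyledon and leaf. This call came from a test of the difference itself (limma, adjusted over 51389 transcripts). The other transcripts named were chosen for changes that were alike, so the number 37 is set by the rule. The 37 are given here by their log2 difference on the deposited scale. The cotyledon change was above the leaf change for 24 of them. Glyma19g33330.1, Glyma09g05440.1, Glyma03g20380.1 and Glyma02g08980.2 had differences of 7.13, 6.79, 6.56 and 6.42. Glyma06g14430.1, Glyma13g27050.1, Glyma15g40510.1 and Glyma08g14670.1 had differences of 6.12, 5.92, 5.89 and 5.04. Glyma18g44560.1, Glyma11g02980.1, Glyma06g07470.1 and Glyma02g12140.1 had differences of 4.72, 4.56, 4.50 and 4.44. Glyma20g02472.1, Glyma11g05550.1, Glyma16g02350.1 and Glyma14g05390.2 had differences of 4.36, 4.24, 4.16 and 3.93. Glyma16g07430.1, Glyma11g03430.1, Glyma10g37640.1 and Glyma08g43330.1 had differences of 3.66, 3.61, 3.49 and 3.21. Glyma03g31530.1, Glyma13g42960.1, Glyma10g38760.1 and Glyma18g52270.1 had differences of 3.05, 2.92, 2.61 and 1.74.

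The cotyledon change was below the leaf change for 13 of them. Glyma13g44210.1, Glyma13g33780.1, Glyma08g48040.2 and Glyma07g03427.1 had differences of -10.99, -7.41, -7.36 and -6.77. Glyma10g42090.1, Glyma16g22488.1, Glyma16g27995.1 and Glyma20g38370.1 had differences of -6.34, -6.15, -5.39 and -4.45. Glyma06g38160.1, Glyma06g02040.4, Glyma14g24220.1 and Glyma06g38440.2 had differences of -4.05, -3.03, -2.67 and -2.23. Glyma02g03960.1 had a difference of -1.68. Stages had 3 libraries each, too few for a test of a single library that stands apart.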

How the results depend on the processing

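In the 22 alternatives fitted per transcript (summed genes excepted), no call of a difference changed sign, and 35 of the 43 transcripts named kept their side of the limits. The exceptions are given beside each transcript. With log2(normalized count + 5), 89 and 40 transcripts changed in opposite directions (rise and fall in the cotyledon) and 36 fell alike. Without the filter these were 88, 46 and 46. With a mean normalized count of at least 10, which left 27661 transcripts, 3047 rose and 3317 fell in the cotyledon, 1365 rose and 2076 fell in the leaf, 93 and 41 were opposite, and 1162 fell in both. By adjusted p-value alone, 7252 rose in the cotyledon and 3531 in the leaf, 328 and 190 were opposite, 1810 rose in both, and 125 rose and 106 fell alike. With each library left out in turn, calls above ranged from 2364 to 3483 and below from 1421 to 2622, cotyledon rises from 4019 to 4979 and falls from 4790 to 5788, and leaf rises from 1757 to 2696 and falls from 3092 to 4171. Opposite changes then ranged from 103 to 145 and from 55 to 80, shared rises from 926 to 1256, shared falls from 1537 to 2029, rises alike from 8 to 25 and falls alike from 11 to 23. Log2(normalized count + 1), both other scalings, all 24 libraries, weights per group, the replicate block and summed genes moved none of these counts by over 1.5 times. Fewer transcripts were tested under the stricter filter. For the other counts the cause was not tested. Replicate numbers did not pair the samples, as deviations of libraries with one number correlated from -0.296 to 0.102. With a replicate block the calls were 2989 above and 1920 below. Depth limits transcripts of few reads, since 12642 of those tested had at most 3 reads in every library of a stage.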
